A study of Mus musculus with 15 samples.

Results

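The 10 genes described here make and mark the inner wall of brain vessels: Slco1a4, Slco1c1, Abcb1a, Slc2a1 and Mfsd2a (transporters), Cldn5 and Pecam1 (cell contacts), and Flt1, Kdr and Tek (receptor tyrosine kinases). They were taken by name as endothelial and blood-brain barrier genes from a table of 24420 genes, all 10 were found, and all 10 were among the 16808 genes tested. The study measured RNA from dissected mouse cerebella in 3 groups of 5 libraries. WT mice were FVB/nJ wild type at 9 weeks. 82Q mice were FVB/nJ at 9 weeks and carried Atxn1[82Q], an ataxin-1 allele with an expanded glutamine repeat that models spinocerebellar ataxia type 1. 82Q_M120A mice carried Atxn1[82Q] together with CalphaLoxM120A, an allele of the catalytic subunit of protein kinase A, and were 8 weeks old on a mixed C57BL/6J:FVB/nJ background. The study's design text calls Atxn1[82Q] a knock-in, and the labels do not say which promoter drives it or which cells express either allele. All 5 libraries of 82Q_M120A differ from all others in the kinase allele, in strain and in age at once, so these 3 cannot be told apart in any comparison with that group. The numbers in the column names of 82Q_M120A also lie apart from those of WT and 82Q. Whether that split has a part in any difference was not tested. No group carried the kinase allele without Atxn1[82Q].

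Endothelial cells of brain vessels seal the tissue from the blood by tight junctions and low vesicle traffic, and carry nutrients inward and drugs outward through transporters in their membranes. Pericytes and the endfeet of astrocytes sit on the outer side of the same vessels, and neural Wnt ligands and Norrin are known to induce and maintain the barrier programme. VEGF and the angiopoietins act on the receptor kinases of these cells and govern vessel growth and stability. In the cerebellum, as elsewhere in the brain, such cells are a small part of the tissue. In bulk RNA, fewer cells of a type and less RNA per cell cannot be told apart.

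Depth was 38.3 to 99.4 mega counts (M) of assigned reads per library. The members had 450 to 14845 counts per library, so counting alone gives each value a Poisson error of 0.821% to 4.71%, below the common biological coefficient of variation between libraries of the fit, which as a fraction was 0.105. As a check of the labels, Atxn1 passed the test in no comparison (WT 52.9 ± 6.199 CPM; 82Q 56.5 ± 1.75 CPM; 82Q_M120A 53.9 ± 2.14 CPM), and whether these counts include reads of the introduced allele is stated in none of the sources used here. Prkaca, which encodes the kinase subunit, was lower in 82Q_M120A than in WT (log2 fold change -0.21 ± 0.03; adjusted p = 5.09e-05). Nothing in the labels says whether the 5 libraries of a group came from separate animals; p-values measure the spread between these libraries. CPM below means counts scaled to library size (counts per mega counts, with TMM factors), a difference was called at an adjusted p under 0.05 over all tested genes (edgeR quasi-likelihood test, Benjamini-Hochberg), and log2 fold changes carry an approximate standard error.

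Of the 10 genes, 5 were called in at least 1 comparison, against 7450 (44.3%) of all tested genes. Slco1a4, an organic anion transporter of the vessel wall, was 1.68-fold higher in 82Q_M120A than in WT and 1.62-fold higher than in 82Q. Abcb1a, the drug efflux pump P-glycoprotein, was also higher in 82Q_M120A than in either other group, and Slco1c1, a thyroid hormone and anion transporter, was lower. Slc2a1, the glucose transporter GLUT1, was lower in 82Q_M120A than in 82Q. Kdr, the main signalling receptor for VEGF-A, was lower in 82Q and in 82Q_M120A than in WT, while Flt1, Tek, Pecam1, Cldn5 and Mfsd2a passed the test in no comparison.

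Of the 10 genes, 1 was called in 82Q against WT (0 higher, 1 lower), where 18.7% of all tested genes were called. In 82Q_M120A against WT 4 were called (2 higher, 2 lower), with 36.4% called among all genes, and in 82Q_M120A against 82Q 4 were called (2 higher, 2 lower), with 18.9% called among all genes. The values of the 2 groups did not overlap for 1, 2 and 3 of the 10 members in these 3 comparisons, against 16.6%, 25.3% and 12.1% of all tested genes. The members' count thus lay at or near the background in both comparisons with WT. The median log2 fold change of the 10 members was 0.05, 0.02 and 0.02, beside 0.01, 0.01 and -0.00274 over all tested genes. The median size of the change, without its sign, was 0.07, 0.16 and 0.22 for the members, beside 0.09, 0.13 and 0.09 for all genes. The 3 comparisons share groups and are not independent of each other.

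**Figure D1:**
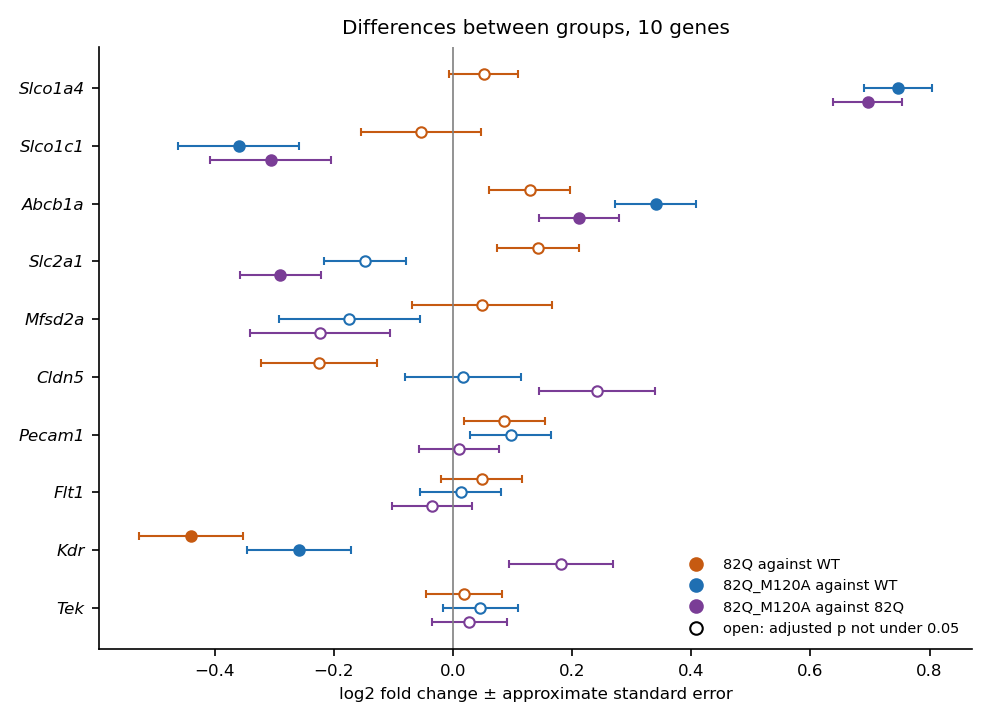
Log2 fold change with its approximate standard error (horizontal axis) for each of the 10 genes for the 3 pairs of groups named in the legend; filled points have an adjusted p under 0.05. Slco1a4 lies far to the right in both comparisons with 82Q_M120A and near 0 in 82Q against WT, and Kdr is the only filled point of 82Q against WT.

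To compare levels between genes, CPM were divided by the length of the annotated exons in kilobases (CPM per kb). In WT the order was Slc2a1 (39.9 ± 1.97), Cldn5 (20.2 ± 1.74), Slco1c1 (11.4 ± 1.67), Mfsd2a (9.24 ± 0.459), Slco1a4 (6.97 ± 0.608), Abcb1a (6.88 ± 0.6995), Tek (4.12 ± 0.245), Pecam1 (3.32 ± 0.324), Flt1 (3.202 ± 0.142) and Kdr (1.5004 ± 0.174; mean ± SD, n = 5). Neighbours whose 5 WT values overlapped in this order were Slco1c1 with Mfsd2a, Slco1a4 with Abcb1a, and Pecam1 with Flt1. The 5 transporters and the claudin were thus above Pecam1 and the 3 receptors per kilobase. Exon lengths from GENCODE M21 count every annotated exon of a gene, so a gene with many unused exons reads low on this scale.

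Slco1a4 (ENSMUSG00000030237.14, chr6:141805440-141856199 of mm10, minus strand) is known from the luminal and abluminal membranes of brain capillaries. Its level was 48.4, 45.8, 45.5, 38.1 and 45.8 CPM in the WT libraries (WT-1 to WT-5, here and below in this order), 42.5, 46.5, 48.3, 46.5 and 47.7 CPM in those of 82Q and 76.7, 78.5, 67.1, 75.3 and 77.5 CPM in those of 82Q_M120A. WT and 82Q overlapped throughout, and the lowest 82Q_M120A library lay above the highest of the other 10. Means were 44.7 ± 3.897 CPM in WT, 46.3 ± 2.29 CPM in 82Q and 75.03 ± 4.59 CPM in 82Q_M120A (SD, n = 5, as for all means below). The log2 fold change was 0.75 ± 0.06 in 82Q_M120A against WT (adjusted p = 1.68e-08) and 0.70 ± 0.06 against 82Q (adjusted p = 1.79e-07). In 82Q against WT it was 0.05 ± 0.06 (adjusted p = 0.6). Slco1a4 has close relatives, among them Slco1a5, which stood at 0.431 CPM over all libraries. How the authors' counting treated reads shared between such copies is stated in none of the sources used here.

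Slco1c1 (ENSMUSG00000030235.17, chr6:141524368-141570177 of mm10, plus strand) carries thyroxine across the brain endothelium and is also known from the epithelium of the choroid plexus, the tissue that secretes cerebrospinal fluid. It had 61.4, 64.9, 65.2, 44.2 and 59.9 CPM in the WT libraries, 53.5, 60.8, 53.5, 54.2 and 62.8 CPM in 82Q and 54.8, 40.95, 46.96, 44.4 and 42.9 CPM in 82Q_M120A. The groups overlapped in every comparison. WT-4 lay with the 82Q_M120A libraries, and 82Q_M120A-1 lay with those of 82Q. Means were 59.1 ± 8.64 CPM, 56.9 ± 4.49 CPM and 46.02 ± 5.39 CPM in WT, 82Q and 82Q_M120A. Slco1c1 was lower in 82Q_M120A than in WT, with a log2 fold change of -0.36 ± 0.10 (adjusted p = 0.0117). It was lower than in 82Q at -0.31 ± 0.10 (adjusted p = 0.0465). In 82Q against WT the value was -0.05 ± 0.10 (adjusted p = 0.77). The call against 82Q held in only 1 of the 10 fits that leave out a library of these 2 groups, the fit without 82Q_M120A-1, and was lost without each of the 5 82Q libraries and without 82Q_M120A-2, 82Q_M120A-3, 82Q_M120A-4 or 82Q_M120A-5 (adjusted p = 0.0598 to 0.107). It was also lost with scaling by library size alone (adjusted p = 0.0554) and with no filter on low counts (adjusted p = 0.0679).

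Transcripts of the choroid plexus moved with Slco1c1. The summed level of 12 choroid plexus genes, Ttr and Enpp2 the most abundant, was 222 to 4411 CPM in WT, 310.3 to 4701 CPM in 82Q and 204 to 3328 CPM in 82Q_M120A. None of the 12 was at 0 in a library, and none of the 12 was called in any comparison. The libraries fell into separate sets on this scale, so no pooled correlation is given. In the 7 libraries with a summed level of 2829 CPM or more (WT-1, WT-2, WT-3, WT-5, 82Q-2, 82Q-5 and 82Q_M120A-1), Slco1c1 was 59.9 to 65.2 CPM in WT, 60.8 and 62.8 CPM in 82Q and 54.8 CPM in the lone 82Q_M120A library. In the other 8, with 724 CPM or less, it was 44.2 CPM in the lone WT library, 53.5 to 54.2 CPM in 3 82Q libraries and 41.0 to 47.0 CPM in 4 82Q_M120A libraries. Within either set every 82Q_M120A library was below every 82Q library, and in the set with the lower choroid plexus level the lone WT library lay inside the 82Q_M120A range. With the choroid plexus score (the mean log2 CPM of the 12 genes) as a covariate, the log2 fold change of Slco1c1 was -0.15 against WT (adjusted p = 0.0426) and -0.19 against 82Q (adjusted p = 0.00971), smaller than without it by more than 1.5 times in both. Slco1a4 was higher in 82Q_M120A in either set: 82Q_M120A-1, with a high choroid plexus level, had 76.7 CPM and the other 4 had 67.1 to 78.5 CPM. With the covariate its log2 fold change was 0.83 against WT and 0.74 against 82Q. The lower set held a lone WT library and the higher set a lone 82Q_M120A library, so group and choroid plexus level were not independent. The part of choroid plexus tissue in the differences of either gene was not tested.

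**Figure D2:**
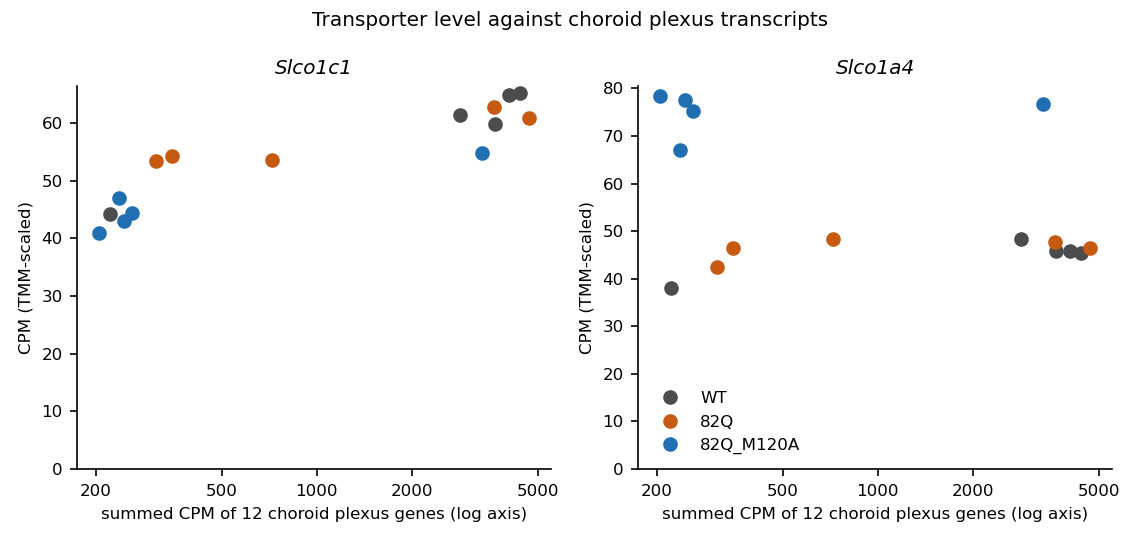
CPM of Slco1c1 (left) and Slco1a4 (right) in each of 15 libraries against the summed CPM of 12 choroid plexus genes (log axis); colours mark the groups. Slco1c1 is at 54.8 to 65.2 CPM in the 7 libraries on the right and at 41.0 to 54.2 CPM in the 8 on the left, while Slco1a4 is at 67.1 CPM or more in all 5 82Q_M120A libraries on either side.

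Slco1c1 and Slco1a4 lie on the same chromosome, with their starts 331.8 kb apart, and differed in opposite directions in 82Q_M120A. Their upstream sequences are shown because these neighbours are related transporters with opposite differences: the 250 bases before the RefSeq start (GRCm38.p6, the C57BL/6J reference, not FVB/nJ), 5′ to 3′ on the gene's strand. Capitals mark the longest run the windows share, 14 bases.
Slco1a4, chr6:141856221-141856470, minus strand: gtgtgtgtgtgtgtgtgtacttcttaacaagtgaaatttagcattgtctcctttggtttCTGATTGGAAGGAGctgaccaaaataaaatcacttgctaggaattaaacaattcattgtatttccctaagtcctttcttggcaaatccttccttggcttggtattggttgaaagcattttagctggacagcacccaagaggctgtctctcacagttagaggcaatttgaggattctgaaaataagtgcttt
Slco1c1, chr6:141524104-141524353, plus strand: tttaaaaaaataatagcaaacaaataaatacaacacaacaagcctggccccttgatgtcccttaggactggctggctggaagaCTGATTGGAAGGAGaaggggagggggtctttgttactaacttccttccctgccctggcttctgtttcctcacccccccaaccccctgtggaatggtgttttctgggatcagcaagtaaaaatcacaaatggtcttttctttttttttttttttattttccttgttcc
The shared run begins 191 bases before the start of Slco1a4 and 167 bases before that of Slco1c1. Among the members' windows, those of Abcb1a and Slco1c1 also shared a run, of 13 bases, nearly all T. The 14-base run was taken from the Slco1a4 and Slco1c1 windows, so its presence in both was fixed in advance. On either strand it was found in 2 of 32851 such windows (0.00609%), which are these 2, and this share is no test of the run. It holds GGAAG, a form of the core bound by ETS factors, and GGAAG stands in 64.1% of all windows. A match of letters is a description of these windows and not a binding site.

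Within 1 Mb of the start of Slco1a4, 12 other genes were tested; this set was chosen after values were seen. In 82Q against WT 1 was higher and 1 lower, in 82Q_M120A against WT 3 were higher and 5 lower, and in 82Q_M120A against 82Q 2 were higher and 3 lower. Over all tested genes 18.7%, 36.4% and 18.9% were called in these comparisons. Pde3a, a cyclic nucleotide phosphodiesterase whose start is 606.9 kb away, was the other neighbour with higher values in all 82Q_M120A libraries than in any other. It ranged from 12.1 to 16.5 CPM there, from 8.98 to 11.7 CPM in WT and from 8.17 to 10.6 CPM in 82Q, with log2 fold changes of 0.62 against WT (adjusted p = 4.58e-05) and 0.73 against 82Q (adjusted p = 2.36e-05). Gm7457, 958.0 kb away, was lower in the same comparisons without overlap (log2 fold change -1.44 ± 0.31 and -1.46 ± 0.31).

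**Figure D3:**
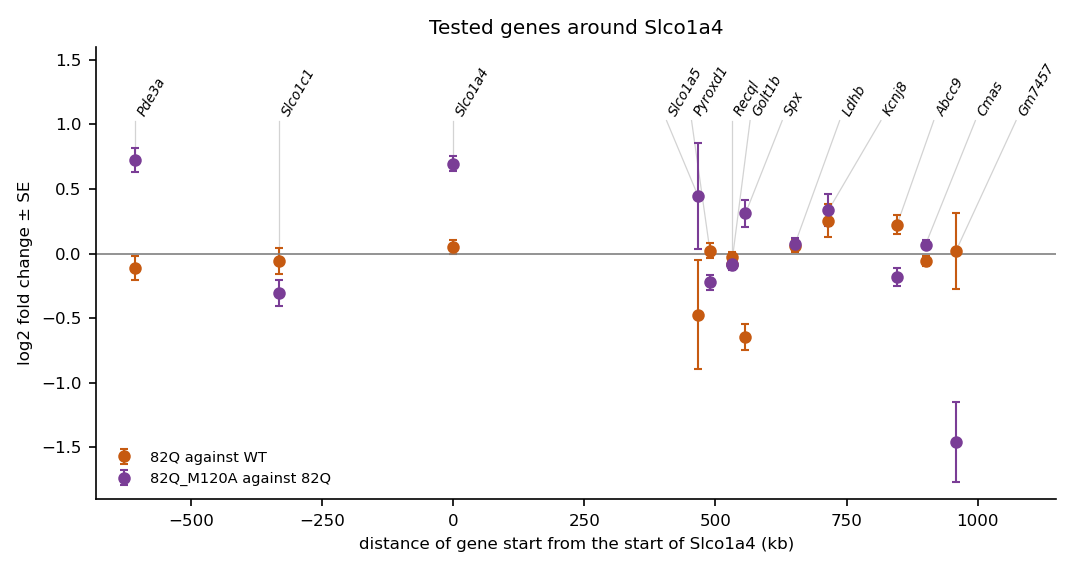
Log2 fold change with its approximate standard error for Slco1a4 and the 12 other tested genes within 1 Mb, against the distance of their starts from that of Slco1a4 in kb, for 82Q against WT and 82Q_M120A against 82Q. Pde3a and Slco1a4 are higher in 82Q_M120A by similar amounts, with Slco1c1 between them lower.

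Abcb1a (ENSMUSG00000040584.8, chr5:8660077-8748575 of mm10, plus strand; 2 unspliced models of uncertain status overlap it, 1 on each strand) pumps many drugs back into the blood. Levels were 40.1, 42.7, 36.8, 36.3 and 32.6 CPM in WT, 35.7, 42.7, 38.9, 43.1 and 45.95 CPM in 82Q and 46.3, 47.7, 50.02, 46.3 and 48.6 CPM in 82Q_M120A. Every 82Q_M120A library was above every library of the other 2 groups, narrowly so against 82Q, and WT and 82Q overlapped. Means were 37.7 ± 3.83 CPM, 41.3 ± 3.98 CPM and 47.8 ± 1.59 CPM in WT, 82Q and 82Q_M120A. The log2 fold change was 0.34 ± 0.07 in 82Q_M120A against WT (adjusted p = 0.000846), 0.21 ± 0.07 against 82Q (adjusted p = 0.0378) and 0.13 ± 0.07 in 82Q against WT (adjusted p = 0.216). The call against 82Q was lost in 5 of the 10 fits that leave out a library, those without 82Q-1, 82Q-3, 82Q_M120A-2, 82Q_M120A-3 and 82Q_M120A-5 (adjusted p = 0.0659 to 0.0956). Abcb1b, its close copy, was at 1.49 ± 0.228 CPM in WT and 1.89 ± 0.214 CPM in 82Q_M120A, and reads that fit both copies could have been split between them.

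Slc2a1 (ENSMUSG00000028645.11, chr4:119108711-119137983 of mm10, plus strand; Mir1957a and the antisense models Gm12867 and Gm12868 overlap it, and no source used here says whether counting used strand) supplies the brain with glucose, in endothelium and, as a less glycosylated form of the same protein, in astrocytes. It had 141, 139, 148, 129 and 141 CPM in WT, 142, 155, 152, 168 and 154 CPM in 82Q and 102, 126, 132, 130.4 and 141 CPM in 82Q_M120A. All 82Q_M120A libraries were below all 82Q libraries, although 82Q_M120A-5, the highest of them, was close to 82Q-1, and WT overlapped with either. Means were 139.8 ± 6.91 CPM in WT, 154 ± 9.41 CPM in 82Q and 126 ± 14.6 CPM in 82Q_M120A. The log2 fold change was -0.29 ± 0.07 in 82Q_M120A against 82Q (adjusted p = 0.00727), 0.14 ± 0.07 in 82Q against WT (adjusted p = 0.17) and -0.15 ± 0.07 in 82Q_M120A against WT (adjusted p = 0.105). Without 82Q_M120A-5 the last of these was called, at -0.19 (adjusted p = 0.0349). Slc2a1 in 82Q against WT was called when scaled by library size alone (0.19; adjusted p = 0.043) and when only these 2 groups were fitted (adjusted p = 0.0372).

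Mfsd2a (ENSMUSG00000028655.11, chr4:122946850-122961188 of mm10, minus strand) moves lysolipids carrying omega-3 fatty acids into the brain and holds down vesicle traffic in the endothelium. Its values were 20.8, 19.8, 21.8, 19.7 and 21.8 CPM in WT, 23.3, 21.5, 16.2, 20.6 and 25.9 CPM in 82Q and 13.9, 18.2, 22.01, 18.5 and 19.5 CPM in 82Q_M120A. The WT libraries lay close together, while those of 82Q and 82Q_M120A spread to either side of them. No comparison passed the test: log2 fold changes were 0.05 ± 0.12 for 82Q and -0.17 ± 0.12 for 82Q_M120A against WT, and -0.22 ± 0.12 between the mutant groups (adjusted p = 0.826, 0.271 and 0.212). Over the 5 transporters, 0 were called in 82Q against WT, 3 were called in 82Q_M120A against WT (2 higher, 1 lower) and 4 in 82Q_M120A against 82Q (2 higher, 2 lower), where 18.7%, 36.4% and 18.9% of all tested genes were called.

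**Figure D4:**
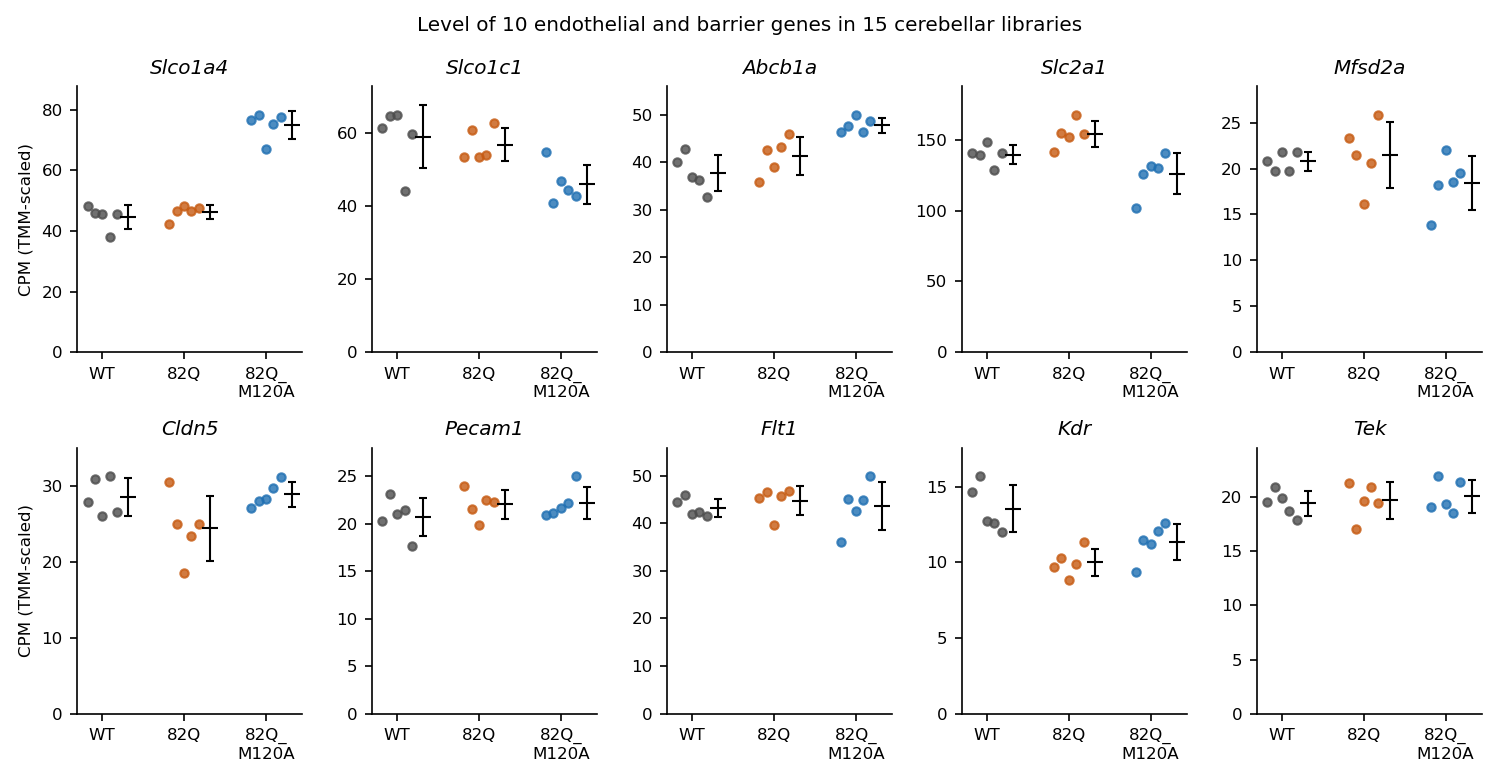
CPM of each of the 10 genes (vertical axes from 0) in the 5 WT, 5 82Q and 5 82Q_M120A libraries; the bars beside the points are the mean and SD. The 82Q_M120A libraries of Slco1a4 sit at 67.1 to 78.5 CPM, above all others, and the 82Q libraries of Kdr sit at 8.85 to 11.3 CPM, below all WT libraries.

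Cldn5 (ENSMUSG00000041378.2, chr16:18776847-18778262 of mm10, plus strand) encodes claudin-5, the main claudin of endothelial tight junctions in the brain. Levels were 27.9, 31.005, 26.1, 31.3 and 26.6 CPM in WT, 30.5, 24.98, 18.5, 23.4 and 25.01 CPM in 82Q and 27.1, 28.1, 28.3, 29.8 and 31.3 CPM in 82Q_M120A. In 82Q, 4 of 5 libraries lay below every WT and 82Q_M120A library, and 82Q-1, at 30.5 CPM, lay among them. The log2 fold change was -0.23 ± 0.10 in 82Q against WT (adjusted p = 0.128) and 0.24 ± 0.10 in 82Q_M120A against 82Q (adjusted p = 0.0969), neither called. Leaving out 82Q-1 brought both past the threshold, at -0.32 (adjusted p = 0.0141) and 0.33 (adjusted p = 0.0121). In 82Q_M120A against WT it was 0.02 ± 0.10 (adjusted p = 0.911).

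Pecam1 (ENSMUSG00000020717.19, chr11:106654217-106750628 of mm10, minus strand) encodes an adhesion molecule at the borders of endothelial cells of all tissues, also carried by platelets and some leukocytes. It ranged from 17.6 to 23.1 CPM in WT, from 19.8 to 24.002 CPM in 82Q and from 20.9 to 25.002 CPM in 82Q_M120A, with medians of 21.1, 22.3 and 21.6 CPM. The 3 groups overlapped. Log2 fold changes were 0.09 ± 0.07 for 82Q and 0.10 ± 0.07 for 82Q_M120A against WT, and 0.01 ± 0.07 between the mutant groups (adjusted p = 0.427, 0.284 and 0.94).

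Kdr (ENSMUSG00000062960.10, chr5:75932827-75978458 of mm10, minus strand) encodes VEGFR2, and Flt1 (ENSMUSG00000029648.13, chr5:147561604-147726011 of mm10, minus strand) encodes VEGFR1, which binds VEGF-A tightly but signals weakly and, as a soluble form, acts as a decoy. Kdr was at 14.7, 15.7, 12.7, 12.6 and 12.03 CPM in WT, 9.71, 10.3, 8.85, 9.901 and 11.3 CPM in 82Q and 9.38, 11.5, 11.2, 12.1 and 12.6 CPM in 82Q_M120A. Every 82Q library was below every WT library, and 82Q_M120A overlapped with both. Mean levels were 13.5 ± 1.57 CPM in WT, 10.01 ± 0.898 CPM in 82Q and 11.3 ± 1.22 CPM in 82Q_M120A (SD, n = 5). The log2 fold change of Kdr was -0.44 ± 0.09 in 82Q against WT (adjusted p = 0.00152), -0.26 ± 0.09 in 82Q_M120A against WT (adjusted p = 0.0273) and 0.18 ± 0.09 in 82Q_M120A against 82Q (adjusted p = 0.165). Whereas the first of these was called in all alternatives run, the second was lost without WT-1, WT-2 or 82Q_M120A-1 (adjusted p = 0.0671, 0.0783 and 0.0679), with scaling by library size alone (adjusted p = 0.0641) and with the choroid plexus covariate (adjusted p = 0.07), where the log2 fold change itself stayed at -0.26. Without 82Q_M120A-1, Kdr was called higher in 82Q_M120A than in 82Q, at 0.24 (adjusted p = 0.0444).

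Flt1 was at 44.5, 45.99, 41.9, 42.4 and 41.5 CPM in WT, 45.2, 46.4, 39.5, 45.8 and 46.7 CPM in 82Q and 36.1, 45.1, 42.5, 44.8 and 49.9 CPM in 82Q_M120A. The groups overlapped, with 82Q-3 low among the 82Q libraries and 82Q_M120A-1 the lowest of all 15. Log2 fold changes were 0.05 ± 0.07, 0.01 ± 0.07 and -0.04 ± 0.07 for these 3 comparisons in the same order (adjusted p = 0.683, 0.9 and 0.77). Tek (ENSMUSG00000006386.15, chr4:94739289-94874976 of mm10, plus strand), the receptor TIE2 for the angiopoietins, ranged from 17.9 to 20.96 CPM in WT, from 17.1 to 21.3 CPM in 82Q and from 18.5 to 21.96 CPM in 82Q_M120A, with medians of 19.6, 19.7 and 19.4 CPM. Its log2 fold changes were 0.02 ± 0.06, 0.05 ± 0.06 and 0.03 ± 0.06 (adjusted p = 0.883, 0.606 and 0.812). The standard errors of Pecam1, Flt1 and Tek were 0.06 to 0.07 on the log2 scale, and a difference must exceed its error several times to be called. With a like error of 0.07, Slc2a1 was not called at 0.14 in 82Q against WT (adjusted p = 0.17). Missing the threshold does not show that the levels were equal.

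Within groups, Flt1 and Kdr followed each other more closely than any other pair of members. After group means were taken out of log2 CPM, Pearson's r over 15 libraries was 0.88 and Spearman's rho 0.93 (permutation test within groups, two-sided, p = 2e-05 for either, adjusted over 45 pairs 0.0009), and r was 0.79 without the 2 libraries farthest from the median of Flt1. Cldn5 and Pecam1 had r = 0.73 (permutation p = 0.00109, adjusted 0.0245) and rho = 0.71 (permutation p = 0.00579, adjusted 0.0868), with r = 0.70 without 2 libraries. These 2 pairs were the only ones of 45 with an adjusted p under 0.05 for r. Over all 45 pairs 35 correlations were positive, the median was 0.26, and the lowest was -0.46, between Slco1a4 and Cldn5. The values of a library share its dissection and its scaling, which all pairs have in common.

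The upstream windows of Flt1 and Kdr are shown because these receptors for the same ligand varied together between libraries, while Kdr alone of them was called between groups. The 250 bases end before the RefSeq start, on the gene's strand. Capitals mark GGAAG, searched on both strands (CTTCC where it lies on the opposite strand). These letters are a form of the core bound by endothelial ETS factors such as ERG and FLI1. Other forms of that core were not searched and are not marked.
Flt1, chr5:147726012-147726261, minus strand: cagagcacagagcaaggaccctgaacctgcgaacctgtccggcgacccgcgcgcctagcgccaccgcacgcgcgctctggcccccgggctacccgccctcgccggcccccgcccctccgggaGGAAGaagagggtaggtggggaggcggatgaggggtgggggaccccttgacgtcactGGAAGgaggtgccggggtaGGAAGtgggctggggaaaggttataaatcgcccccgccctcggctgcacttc
Kdr, chr5:75978456-75978705, minus strand: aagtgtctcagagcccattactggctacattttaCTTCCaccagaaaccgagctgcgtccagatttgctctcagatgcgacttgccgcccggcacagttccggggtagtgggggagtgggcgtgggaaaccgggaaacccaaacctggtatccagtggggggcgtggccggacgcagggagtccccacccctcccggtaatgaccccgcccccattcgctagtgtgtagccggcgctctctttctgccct
The Flt1 window holds GGAAG at 128, 71 and 52 bases before the start, and the Kdr window holds it at 216 bases, on the opposite strand. Of the 9 members with a RefSeq window, 5 hold GGAAG (64.1% of 32851 windows), 1, Abcb1a, holds the forkhead letters GTAAACA (3.17%) and 3, Tek, Abcb1a and Slco1c1, hold the SOX and TCF letters ACAAAG (16.5%), each on either strand. The Abcb1a window ends at a RefSeq start that lies 92986 bases from the GENCODE start given above for this gene, so its matches are not near the latter.

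Of 18 endothelial identity genes outside the members, 1 was called higher and 0 lower in 82Q against WT, 4 higher and 1 lower in 82Q_M120A against WT, and 4 higher and 0 lower in 82Q_M120A against 82Q, with median log2 fold changes of -0.01, 0.09 and 0.12. These counts and those of the lists below stand beside 18.7%, 36.4% and 18.9% of all tested genes called in the 3 comparisons. Tie1, the orphan partner of TIE2, rose in 82Q_M120A by 0.26 ± 0.07 against WT and 0.37 ± 0.07 against 82Q (log2; adjusted p = 0.00467 and 0.000736). Robo4, an endothelial guidance receptor, rose by 0.40 ± 0.08 and 0.35 ± 0.08 (adjusted p = 0.000746 and 0.00456). Egfl7, a protein secreted by endothelium, rose by 0.31 ± 0.07 in 82Q_M120A against 82Q (adjusted p = 0.00508). Eng, a coreceptor for TGF-beta and BMP ligands, fell by 0.36 in 82Q_M120A against WT (adjusted p = 0.00607). The score of the list (mean log2 CPM) was 3.43 ± 0.12 in WT, 3.38 ± 0.06 in 82Q and 3.51 ± 0.06 in 82Q_M120A (SD, n = 5), and none of the 18 genes was at 0 in a library. With this score as a covariate, Slco1a4 differed by 0.73 against WT and 0.67 against 82Q, and Kdr by -0.37 in 82Q against WT (adjusted p = 0.00031) and -0.38 in 82Q_M120A against WT (adjusted p = 0.000252). Between the mutant groups Kdr then differed by -0.01 (adjusted p = 0.953), not called in either fit. The calls of Slco1c1 (adjusted p = 0.125) and Abcb1a (adjusted p = 0.369) in 82Q_M120A against 82Q were lost with this covariate, Abcb1a at 0.11 and Slco1c1 at -0.33. The score itself ran from 3.31 to 3.46 in 82Q and from 3.42 to 3.56 in 82Q_M120A. Score and group were therefore hard to separate in this fit, and why these calls were lost was not tested.

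Among 15 other transporters and receptors of the barrier, 3 were higher and 2 lower in 82Q against WT, 6 higher and 1 lower in 82Q_M120A against WT, and 3 higher and 0 lower in 82Q_M120A against 82Q (median log2 fold change 0.05, 0.04 and 0.07). Abcg2, the efflux pump that works beside P-glycoprotein, averaged 13.3 ± 1.39, 15.9 ± 1.16 and 18.9 ± 0.723 CPM from WT to 82Q to 82Q_M120A, and was called higher in all 3 comparisons (0.25 ± 0.07, 0.50 ± 0.07 and 0.25 ± 0.07; adjusted p = 0.0123, 1.26e-05 and 0.0137). Slco2b1, a further organic anion transporter that microglia also express, went from 7.797 ± 0.719 to 10.2 ± 0.742 and 13.6 ± 1.18 CPM, without overlap between any 2 groups (0.38 ± 0.07, 0.81 ± 0.07 and 0.43 ± 0.07; adjusted p = 0.00111, 1.26e-07 and 0.000471). Lrp8, a reelin receptor that neurons also express, fell by 0.62 in 82Q and by 0.50 in 82Q_M120A against WT (adjusted p = 1.82e-10 and 2.25e-09). Insr, the insulin receptor, was higher than in WT in 82Q (0.13 ± 0.03; adjusted p = 0.0122) and in 82Q_M120A (0.14 ± 0.03; adjusted p = 0.00387). Slc7a5, which with Slc3a2 forms the large neutral amino acid carrier, was higher in 82Q_M120A than in WT by 0.56 ± 0.16 (adjusted p = 0.0144). Its 82Q_M120A libraries were widely spread, from 80.1 to 162 CPM, above the 70.9 to 78.4 CPM of WT. The 82Q libraries, at 87.4 to 106.8 CPM, also lay above all WT libraries but were not called (0.36 ± 0.16, adjusted p = 0.146).

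Of 13 other junction genes, 2 were higher and 1 lower in 82Q against WT, 1 higher and 4 lower in 82Q_M120A against WT, and 0 higher and 3 lower in 82Q_M120A against 82Q (median -0.04, -0.01 and -0.09). Cgnl1, the junction adaptor paracingulin, fell from 133 ± 7.95 CPM in WT and 141 ± 8.45 in 82Q to 102 ± 4.31 in 82Q_M120A without overlap (-0.38 ± 0.05 and -0.46 ± 0.05; adjusted p = 4.23e-06 and 1.41e-06). F11r, the junction adhesion molecule JAM-A, which platelets and epithelia also carry, was lower than in WT in 82Q (-0.27 ± 0.07; adjusted p = 0.0118) and in 82Q_M120A (-0.42 ± 0.07; adjusted p = 0.000167). Tjp1, which encodes the scaffold ZO-1, was higher than in WT in 82Q (0.15 ± 0.04; adjusted p = 0.00867) and in 82Q_M120A (0.17 ± 0.04; adjusted p = 0.00169). Mllt4, which encodes the adherens junction protein afadin, was higher in 82Q than in WT (0.17 ± 0.04; adjusted p = 0.00496) and lower in 82Q_M120A than in 82Q (-0.12 ± 0.04; adjusted p = 0.0435). Ocln, which encodes occludin, passed in none, at -0.04 ± 0.05, 0.05 ± 0.05 and 0.09 ± 0.05 (adjusted p = 0.601, 0.451 and 0.201).

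Among 13 VEGF and angiopoietin ligands, coreceptors and related genes, 3 were higher and 1 lower in 82Q against WT, 4 higher and 2 lower in 82Q_M120A against WT, and 1 higher and 2 lower in 82Q_M120A against 82Q (median 0.05, 0.00200 and -0.02). Angpt1, the activating ligand of TIE2, rose from 12.2 ± 0.654 CPM in WT to 15.8 ± 1.002 in 82Q and 19.7 ± 0.611 in 82Q_M120A, without overlap between any 2 groups (log2 fold change 0.38 ± 0.05 and 0.69 ± 0.05 against WT and 0.32 ± 0.05 between the mutants; adjusted p = 2.14e-05, 5.48e-09 and 0.000182). Vegfa, the ligand of Kdr and Flt1, fell from 140.02 ± 5.47 to 129 ± 3.37 and 119 ± 6.57 CPM (-0.12 ± 0.04, -0.24 ± 0.04 and -0.12 ± 0.04; adjusted p = 0.0348, 7.27e-05 and 0.0291). Pgf, a ligand of Flt1 alone among these receptors, was higher in 82Q (0.49 ± 0.12; adjusted p = 0.00649) and in 82Q_M120A (0.48 ± 0.12; adjusted p = 0.00421) than in WT at a low level of 1.83 ± 0.2997 CPM in WT. Aplnr, the apelin receptor, was lower in 82Q_M120A than in 82Q (-0.76 ± 0.18; adjusted p = 0.00694).

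Of 18 genes of the Wnt and Norrin barrier programme, 1 was higher and 1 lower in 82Q against WT, 4 higher and 2 lower in 82Q_M120A against WT, and 4 higher and 2 lower in 82Q_M120A against 82Q (median 0.05, 0.05 and -0.000083). Wnt7a, a ligand of the barrier pathway, rose from 65.6 ± 4.86 CPM in WT and 69.2 ± 3.38 in 82Q to 84.8 ± 7.02 in 82Q_M120A (0.37 ± 0.06 and 0.29 ± 0.06; adjusted p = 8.39e-05 and 0.00164). Fzd4, the Norrin receptor, fell to 9.9 ± 0.725 CPM there from 14.4 ± 2.09 in WT (-0.54 ± 0.10; adjusted p = 0.00035). Foxq1, a forkhead factor enriched in brain endothelium, was lower in 82Q than in WT (-0.60 ± 0.11; adjusted p = 0.00102) and higher in 82Q_M120A than in 82Q (0.55 ± 0.11; adjusted p = 0.00226).

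Of 10 genes of leaky or activated endothelium 8 were tested: 1 was higher and 1 lower in 82Q against WT, 2 higher and 0 lower in 82Q_M120A against WT, and 3 higher and 1 lower in 82Q_M120A against 82Q (median 0.08, 0.07 and 0.03). Plvap, which forms the diaphragms of fenestrated vessels, was lower in 82Q than in WT (-0.22 ± 0.05; adjusted p = 0.00372) and higher in 82Q_M120A than in 82Q (0.14 ± 0.05; adjusted p = 0.0446). Vcam1, an adhesion molecule of activated endothelium, was lower in 82Q_M120A than in 82Q (-0.28 ± 0.08; adjusted p = 0.017). Cav2, a caveolin, rose from 10.2 ± 0.566 CPM in WT to 17.7 ± 1.74 in 82Q_M120A (0.79 ± 0.07; adjusted p = 1.35e-07), and Ackr1, a chemokine receptor of venules that Purkinje cells also express, from 66.6 ± 4.34 to 91.03 ± 11.1 CPM (0.45 ± 0.07; adjusted p = 0.000162).

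**Figure D5:**
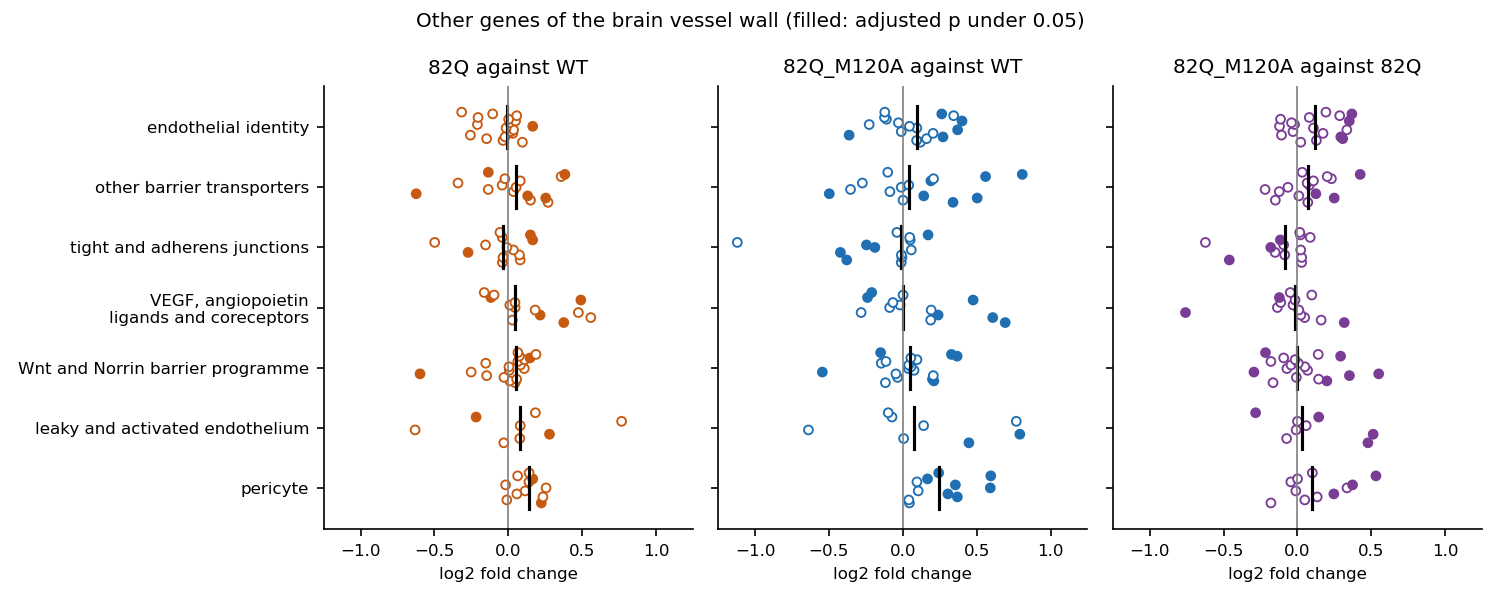
Log2 fold change of every tested gene (points) of 7 lists of vessel-wall genes other than the 10 members, in the 3 comparisons; filled points have an adjusted p under 0.05 and the black bar is the median of the list. The pericyte list has its median furthest from 0, 0.24 in 82Q_M120A against WT, and Cav2, Slco2b1 and Angpt1 are the filled points furthest to the right there.

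The lists of cells that neighbour the endothelium are read, like the lists above, against the 18.7%, 36.4% and 18.9% of all tested genes called in the 3 comparisons. Of 11 pericyte genes 2 were higher and 0 lower in 82Q against WT, 7 higher and 0 lower in 82Q_M120A against WT, and 3 higher and 0 lower in 82Q_M120A against 82Q (median 0.14, 0.24 and 0.10). Rgs5, a regulator of G-protein signalling abundant in pericytes, rose from 24.3 ± 1.57 CPM in WT and 25.4 ± 0.562 in 82Q to 36.8 ± 5.04 in 82Q_M120A (0.60 ± 0.07 and 0.53 ± 0.07; adjusted p = 5.47e-06 and 5.81e-05). Kcnj8, a potassium channel subunit, Atp13a5, an ATPase, and Cspg4, the proteoglycan NG2, rose in 82Q_M120A against WT by 0.59 ± 0.13, 0.37 ± 0.09 and 0.31 ± 0.08 (adjusted p = 0.00127, 0.00272 and 0.00738). Kcnj8 also lies among the tested genes within 1 Mb of the start of Slco1a4, as does Abcc9 of the pericyte list. These sets are therefore not separate observations. The summed level of the 11 genes was 168 to 215 CPM in WT, 194 to 218 CPM in 82Q and 218 to 235 CPM in 82Q_M120A, with none at 0. Its part in the higher Slco1a4 and Abcb1a of 82Q_M120A was not tested. Of 6 vascular smooth muscle genes 1 was higher in 82Q against WT, 0 were called in 82Q_M120A against WT and 1 was lower in 82Q_M120A against 82Q (median 0.17, 0.13 and -0.04), in each case Mylk, a myosin kinase (0.18 ± 0.06 and -0.17 ± 0.06; adjusted p = 0.0448 and 0.0483). Of 8 fibroblast and meningeal genes none was called in the 3 comparisons by edgeR (median 0.07, -0.07 and -0.18), with Igf2 and Col1a2 the most abundant. Of 7 blood genes 3 were tested, and the globin genes of the list did not pass the filter on low counts. How reads that fit several genes were counted is not given, so this does not show that globin RNA was absent. Ppbp and Alas2 were lower in 82Q_M120A than in 82Q (median of the 3 genes 0.41, -0.43 and -1.04). Ppbp was near the floor, at 0.31, 0.47 and 0.23 CPM in WT, 82Q and 82Q_M120A.

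All 9 microglial genes were higher in 82Q than in WT, in 82Q_M120A against WT 7 were higher and 1 lower, and in 82Q_M120A against 82Q 2 were higher and 2 lower (median 0.69, 0.75 and -0.07). C1qb and C1qc, which encode complement C1q chains, were higher than in WT by 0.85 ± 0.07 and 0.86 ± 0.07 in 82Q and by 1.30 ± 0.07 and 1.21 ± 0.07 in 82Q_M120A (adjusted p = 2.08e-08, 1.9e-08, 7.34e-11 and 1.77e-10). Csf1r, the receptor for CSF1, and Ctss, a lysosomal protease, were higher by 0.69 ± 0.05 and 0.89 ± 0.07 in 82Q and by 0.65 ± 0.05 and 0.82 ± 0.07 in 82Q_M120A (adjusted p = 9.24e-09, 1.65e-08, 1.19e-08 and 3.44e-08). Against WT, Tmem119 was lower in 82Q_M120A (-0.22 ± 0.06; adjusted p = 0.00594) and P2ry12 was not called there (0.16 ± 0.07; adjusted p = 0.0933). Both were lower in 82Q_M120A than in 82Q (-0.48 ± 0.06 and -0.21 ± 0.07; adjusted p = 9.83e-06 and 0.0492). The summed microglial level was 107 to 121 CPM in WT, 182 to 197 CPM in 82Q and 176 to 207 CPM in 82Q_M120A, and the part of that level in the lower Kdr of both mutant groups was not tested. Of 8 genes of astrocytes and Bergmann glia, 5 were higher and 1 lower in 82Q against WT, 4 higher and 1 lower in 82Q_M120A against WT, and 0 higher and 1 lower in 82Q_M120A against 82Q (median 0.20, 0.13 and -0.03). Gja1, a gap junction protein, and Gfap, the intermediate filament of reactive astrocytes, were higher than in WT by 0.43 ± 0.04 and 1.43 ± 0.12 in 82Q and by 0.37 ± 0.04 and 1.39 ± 0.12 in 82Q_M120A (adjusted p = 2.16e-07, 4.99e-07, 8.95e-07 and 4.44e-07). Slc1a3, the glutamate transporter of Bergmann glia and the lone gene of the list called lower than in WT, was at -0.30 ± 0.05 in 82Q and -0.22 ± 0.05 in 82Q_M120A (adjusted p = 0.000342 and 0.00273). Aqp4, the water channel of the endfeet on vessels, was higher in 82Q (0.49 ± 0.06; adjusted p = 5.98e-06) and in 82Q_M120A (0.53 ± 0.06; adjusted p = 1.25e-06) than in WT.

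Genes with the pattern most like that of the members were sought by correlation over the 15 libraries among the 14004 tested genes that averaged 1 CPM or more. To the mean z-score of the 10 members, with group means taken out, the closest were Ahdc1 (r = 0.90), Lzts2 (0.89), Arpc1b (0.88), Lamb2 (0.88) and Gltscr1 (0.88), and none of these 5 was called between groups. To Slco1a4, with group differences kept in, the closest were Nxpe4 (0.99), 1700063D05Rik (0.98), Lipo1 (0.98), Srprb (0.97) and Rpl29 (0.97). All 5 of the latter were called higher in 82Q_M120A than in WT and than in 82Q, by 0.38 (Srprb) to 4.32 (Rpl29) on the log2 scale against WT. That direction follows from how they were picked, because Slco1a4 itself was higher in 82Q_M120A. Rpl29, a ribosomal protein gene of a family with many processed copies, went from 3.04 CPM in WT and 3.12 CPM in 82Q to 61.1 CPM in 82Q_M120A, and its value may be uncertain where reads fit such copies. These correlations describe the libraries, which share groups, strain and scaling.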

How the data were processed

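RNA of mouse cerebellum was measured in 15 libraries, 5 per group, and the authors deposited read counts per gene. The submitters' processing notes name featureCounts and Subread, HISAT2 2.0.1 with genome mm10, CASAVA 1.8, and DESeq2 1.14.1 in R 3.3.3. Annotation, strand setting and handling of multi-mapping reads: not given in the sources used here. Column names hold the group, the age and a separate number for each column, but no replicate number. Libraries are therefore numbered by column order within a group. The numbers in the column names of the group with the kinase allele all lie above those of the other groups, whose numbers interleave.

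Counts were fitted with edgeR 4.0.16 (limma 3.58.1, R 4.3.3; glmQLFit with robust estimation, TMM, filterByExpr) over all 15 libraries with group as the factor, two-sided, and adjusted by Benjamini-Hochberg over 16808 genes. The script was tested on simulated counts. Because each group has 1 strain and 1 age, neither is a term of the fit. The standard errors given are the absolute log2 fold change over the root of F. Scores use a prior count of 2. Pair correlations used 100000 permutations within groups.

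The members, the 13 other gene lists (148 genes) and the tests were chosen with earlier results of these data known; Afdn and Vegfd were matched as Mllt4 and Figf. Text names all members, per list up to 4 called genes ranked by adjusted p (or the 2 of highest level), and the 5 genes most like the members or Slco1a4. Slc7a5, Slc3a2, Ocln, Abcb1b, Pde3a, Gm7457, Tmem119 and P2ry12 were named after their values were seen. A gene that the rule picks is not reported here. Coordinates are from GENCODE M21, upstream windows from RefSeq (GRCm38.p6), matched for 9 of 10 members. Alternatives were other scalings, filters, tools, groups fitted, 2 covariates and leaving out each library.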

Additional observations from a re-analysis of the deposited data

Results flagged for a closer look

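In 4 of the 30 sets of 5 libraries (10 genes in 3 groups) 1 library stood apart from the other 4 by Dixon's criterion, which chance meets in about 1 in 20 sets. WT-4 was low for Slco1a4, at 38.1 CPM with the nearest WT library at 45.5 CPM, and for Slco1c1, at 44.2 CPM with the nearest at 59.9 CPM; this is the WT library with the lowest choroid plexus level (222 CPM summed), and without it or with the choroid plexus covariate both genes were still called in 82Q_M120A against WT. 82Q_M120A-3 was low for Slco1a4, at 67.1 CPM against 75.3 CPM in the nearest library of its group, still above all WT and 82Q libraries. 82Q-3 was low for Flt1, at 39.5 CPM against 45.2 CPM in the nearest.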

How the results depend on the processing

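Of 570 recomputed values of the 10 members, 541 kept their direction if called and their side of the threshold, 23 lost a call, 6 gained a call and 0 called values changed sign. Slco1a4 and Slco1c1 in 82Q_M120A against WT, Slco1a4 and Slc2a1 against 82Q, Abcb1a in 82Q_M120A against WT and Kdr in 82Q against WT were called in all 19 alternatives. No paired analysis was possible because the columns carry no replicate number.

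Members called in 82Q against WT rose to 2 with scaling by library size alone and with only these groups fitted, and were 1 to 2 when each library was left out (2 without 82Q-1). With the endothelial identity covariate the members' median was -0.0705 in 82Q_M120A against WT and -0.0921 against 82Q, where 1815 genes and 2 members were called. Leaving out each library gave 3 to 5 members called in 82Q_M120A against WT and 2 to 5 against 82Q (2 without 82Q-3, 82Q_M120A-2, 82Q_M120A-3 or 82Q_M120A-5), and 2567 to 3003, 5450 to 6009 and 2562 to 3210 genes called in the 3 comparisons. The cause of these shifts was not tested. With library size alone, 73.0% of called genes were higher in 82Q against WT (46.2% with TMM) and 68.8% in 82Q_M120A against WT (51.1%), and the median of all genes in 82Q against WT was 0.06.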
